A study of Mus musculus with 12 samples.

Results

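OT-I CD8 T cells recovered from melanomas were compared with OT-I cells that had not been in a tumour. All 12 bulk RNA-seq libraries of the series entered the comparison, 6 of them from tumours and 6 not. T cells of OT-I mice recognise an ovalbumin peptide through a transgenic receptor, and all 4 groups have the OT-I genotype. The 3 naive libraries came from lymph node cells of OT-I mice without a tumour (labelled Day 0), and the 3 effector libraries from OT-I cells stimulated in vitro with antigen for 5 days. The tumour libraries came from transferred OT-I cells that were sorted as CD44+ cells out of B78ChOVA melanomas in C57Bl6/J mice, 3 at day 4 and 3 at day 14 after transfer. The labels call both tumour groups exhausted. Ovalbumin, the antigen of OT-I cells, is expressed by B78ChOVA melanoma cells together with the fluorescent protein mCherry. The labels give a CD44 gate only for tumour cells, and they name no animals, so p-values measure the spread between these samples. The average of the day 4 and day 14 groups was set against the average of the naive and effector groups, each group with equal weight, and the 6 tumour libraries and 6 comparison libraries are called so below.

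Exhausted CD8 T cells arise where antigen persists, and are usually recognised by inhibitory receptors such as PD-1, TIM-3 and LAG-3. Around these receptors lies a wider programme: transcription factors induced by repeated receptor signalling (the NR4A family, TOX), feedback inhibitors of that signalling, secreted chemokines and cytokines, and a loss of lymph node homing receptors. Sorted tumour cells can also carry transcripts of the tumour. Melanoma cells keep the pigment genes of melanocytes, among them Dct, Tyr and Tyrp1, which encode the enzymes of melanin synthesis and are driven by the transcription factor MITF through the M-box of their promoters.

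The promoters of 3 pigment genes are shown with the M-box in capitals (TCATGTG, or its reverse complement). The search describes letters and does not tell melanoma transcripts from those of T cells. RefSeq promoter windows of GRCm38.p6, from 250 bases before to 50 bases after the start of transcription, were searched on both strands. The Dct window lay at chr14:118052197-118052496 on the minus strand, the Tyr window at chr7:87493463-87493762 on the minus strand and the Tyrp1 window at chr4:80833963-80834262 on the plus strand.
Dct: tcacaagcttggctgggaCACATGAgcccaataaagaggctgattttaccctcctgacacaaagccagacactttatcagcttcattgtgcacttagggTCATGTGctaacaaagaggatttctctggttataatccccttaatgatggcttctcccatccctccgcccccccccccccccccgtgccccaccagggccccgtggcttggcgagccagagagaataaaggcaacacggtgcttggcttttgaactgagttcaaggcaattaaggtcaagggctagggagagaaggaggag
Tyr: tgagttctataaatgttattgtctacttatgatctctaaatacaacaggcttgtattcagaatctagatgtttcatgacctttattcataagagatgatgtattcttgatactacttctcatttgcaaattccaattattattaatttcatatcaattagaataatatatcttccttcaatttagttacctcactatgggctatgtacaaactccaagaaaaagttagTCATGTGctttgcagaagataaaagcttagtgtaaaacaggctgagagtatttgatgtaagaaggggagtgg
Tyrp1: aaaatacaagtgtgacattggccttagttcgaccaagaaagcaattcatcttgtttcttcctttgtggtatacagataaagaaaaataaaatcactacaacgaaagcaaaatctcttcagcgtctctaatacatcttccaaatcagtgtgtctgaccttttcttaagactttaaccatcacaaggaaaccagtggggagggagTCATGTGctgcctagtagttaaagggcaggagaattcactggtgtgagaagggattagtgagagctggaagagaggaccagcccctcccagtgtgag
Of the 12 pigment-cell genes that formed the melanocyte index described below, 7 had a window, and 6 of these 7 genes held the M-box (6 of 8 windows, 75%). Over all 32851 windows the share was 3.77%. Among the 14 genes with the highest fold changes outside the markers and the melanocyte-linked genes, named below, 13 had a window, and 0 of their 20 windows held the M-box. The first 7 letters of the NR4A site, AAAGGTC, were in 3.77% of all windows, in 0 of the same 20 windows, in 2 of the 8 index windows (25%) and in 1 of 9 windows of the genes furthest below, that of Cnr2. The first 7 letters of the cyclic AMP response element, TGACGTC, searched after the values were seen, were in 3.21% of all windows, in 0 of the 20, in 0 of the 9 and in 0 of the 8. The M-box letters contain the E-box core CANNTG and overlap neither other motif. A match is a description of the letters only.

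Gene counts per library ranged from 11937053 to 17094006. The summed level of 12 CD8 T cell identity genes was 4122 to 5691 CPM (read counts per gene scaled to a common library size with TMM factors) in tumour libraries and 5806 to 7981 CPM in comparison libraries. Cd3e held 435, 484 and 526 CPM in the day 4 libraries and 612, 673 and 608 CPM in the day 14 libraries, beside 643 to 727 CPM in the comparison libraries. These genes were abundant in all 12 libraries, and their sum was lower in each tumour library than in each comparison library. In bulk samples, fewer cells of a type and less RNA per cell cannot be told apart. Most of the usual exhaustion receptors followed the labels. Of 15 tested, 12 rose, 2 fell and 1 was not called, beside 37.8% and 33.4% of all genes called higher and lower. The lowest log2 fold change among them was -2.34, and 9 rose with the groups merged into a tumour and a comparison mean. Pdcd1, the PD-1 gene, held 373, 353 and 409 CPM in the day 4 libraries and 646, 756 and 688 CPM in the day 14 libraries against 0.153 to 3.70 CPM. Havcr2, the TIM-3 gene, held 106 to 1190.2 against 0.383 to 29.0 CPM.

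Melanocyte transcripts were present in every tumour library and differed in amount between them. The summed CPM of 12 pigment-cell genes, here the melanocyte index, was 1047, 972 and 704 CPM at day 4 and 1670.0, 697 and 435 CPM at day 14. It was 36.0 to 45.4 CPM in the comparison libraries. Day 14 replicate 1 held the most and day 14 replicate 3 the least, a 3.84-fold span. Dct (ENSMUSG00000022129.4, chr14:118012790-118052244, - strand) carried most of the index, with 789, 698 and 479 CPM in the day 4 libraries and 1214, 492 and 318 CPM in the day 14 libraries against 0.575 to 2.15 CPM. Its log2 fold change was 9.50 ± 0.55, adjusted p = 4.3e-07 (edgeR quasi-likelihood test). Tyrp1 held 48.4, 56.5 and 54.2 CPM at day 4 and 107, 44.2 and 18.2 CPM at day 14, from 5077 counts in tumour libraries and 2 in the others, a ratio of 2098 (95% interval 580.4 to 17327); without naive replicate 3 the other side had no count and the ratio was at least 1163. For Tyr the ratio was 1035 (95% interval 185 to 40898), at least 289 without naive replicate 2. The index of the comparison libraries came mainly from Pmel (25.0 to 41.3 CPM there), whose span overlaps Cdk2 and Dgka on the other strand, so that these unstranded reads cannot be assigned. Trpm1, a cation channel of melanocytes, was at 8.59 ± 1.71 CPM in naive cells (SD, n = 3) and at 0.37 ± 0.372 CPM in effector cells. Slc24a5, which overlaps Myef2, did not pass the test (1.35 to 2.18 against 1.04 to 2.59 CPM), and Oca2 was too low to be tested.

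The 3.84-fold span of the index among tumour libraries was used to separate melanoma-linked transcripts from the rest. For each gene, CPM was regressed on the index over the 6 tumour libraries with day as a term. The slope times the mean index, divided by the mean CPM, gave the percentage of the gene's tumour level that moved with the index, its melanocyte-linked share (± SE of the slope). A gene was described as linked where this share was at least 50% and at least 3 SEs above 0. This held for 637 of 16426 genes tested (3.88%), and 417 of them were among the 6214 genes called higher in the tumour libraries (6.71% of those). The rule missed pigment genes: of 18 melanocyte lineage and melanoma genes tested, 12 met it. Without day 4 replicate 1 the shares of the index genes Tspan10 and Slc24a5 were 47.1% ± 22.7 and 16.8% ± 25.6. A low share therefore does not place a transcript outside melanoma cells.

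**Figure D1:**
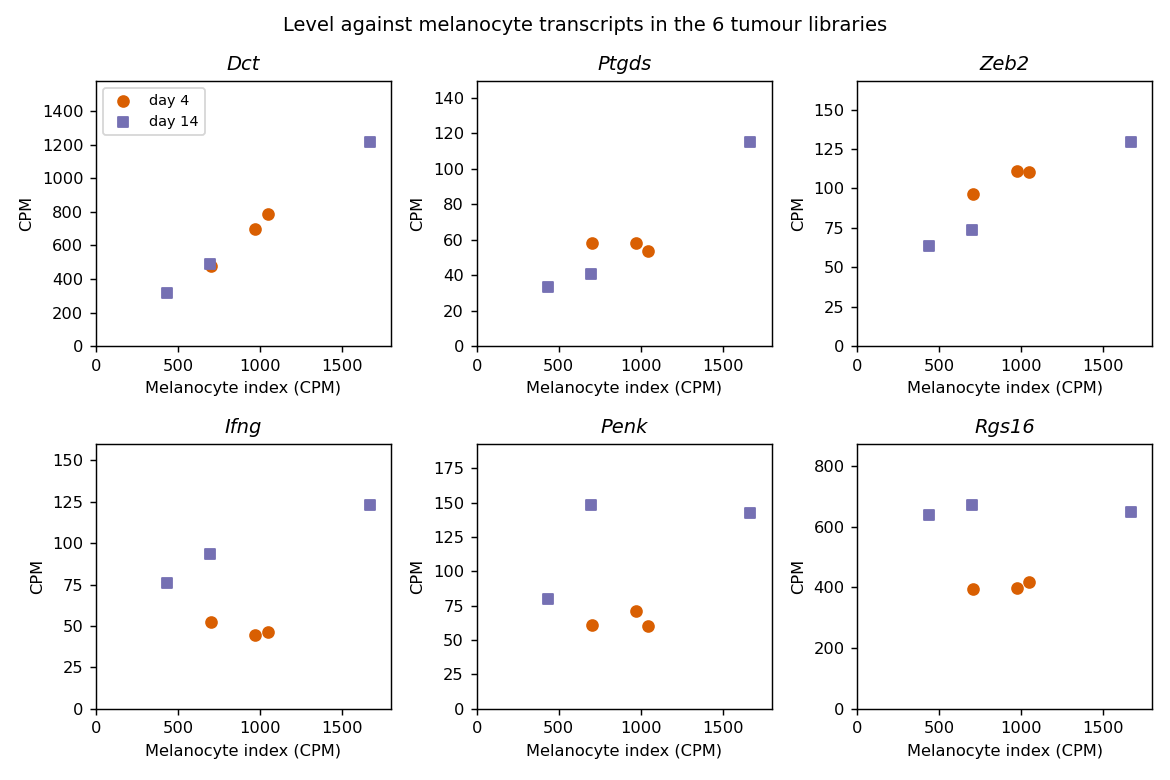
CPM of 6 genes (y axis) against the melanocyte index (x axis, CPM) in the 6 tumour libraries, circles for day 4 and squares for day 14. Dct, Ptgds and Zeb2 rise along the index, Rgs16 lies at 2 levels set by day whatever the index, and Ifng and Penk lie between these patterns.

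Outside the marker lists, 8 linked genes were named for the highest tumour levels. Zeb2, a zinc finger factor known from effector T cells and from melanocytes alike, held 111, 111 and 96.2 CPM in the day 4 libraries and 129, 73.4 and 63.2 CPM in the day 14 libraries against 0.995 to 3.09 CPM, with a share of 51.1% ± 2.67. Ptgds, the prostaglandin D2 synthase, held 53.8, 58.4 and 58.4 CPM in the day 4 libraries and 115, 40.4 and 33.5 CPM in the day 14 libraries against 0 to 0.398 CPM, with a share of 97.3% ± 19.7; its log2 fold change of 8.16 became 9.08 without effector replicate 3. Igfn1 had a share of 105% ± 17.4, the secreted carbonic anhydrase gene Car6 81.6% ± 7.99, and the sulfatase gene Sulf2 98.1% ± 23.7. The shares of Syne2, Ppfibp1 and Fos were 65.4% ± 11.5, 53.9% ± 14.6 and 56.7% ± 6.16. Fos, an immediate early gene, is therefore in the linked set together with genes of pigment cells. Several markers of other cell types were linked as well: Gpnmb, known from macrophages and from melanocytes, at 98.3% ± 7.03, and Sparc, a matrix protein of fibroblasts and melanoma cells, at 96.9% ± 18.1. Fn1, fibronectin, had 74.7% ± 33.4, which did not reach 3 SEs.

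The linked set rested on day 14 replicate 1. Without that library the index spanned a narrower range, 506 genes met the rule, and only 129 of the 637 were among them. The share without it was 112% ± 11.7 for Dct, 4.05% ± 21.6 for Ptgds, 36.7% ± 5.70 for Zeb2, 60.9% ± 20.4 for Fos and 109.9% ± 23.5 for Gpnmb. Leaving out any other tumour library gave 563 to 777 linked genes, of which 409 to 575 were in the set of 637. A share therefore describes how a transcript moved with pigment genes in these 6 libraries, and the part played by other properties of day 14 replicate 1 was not tested.

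**Figure D2:**
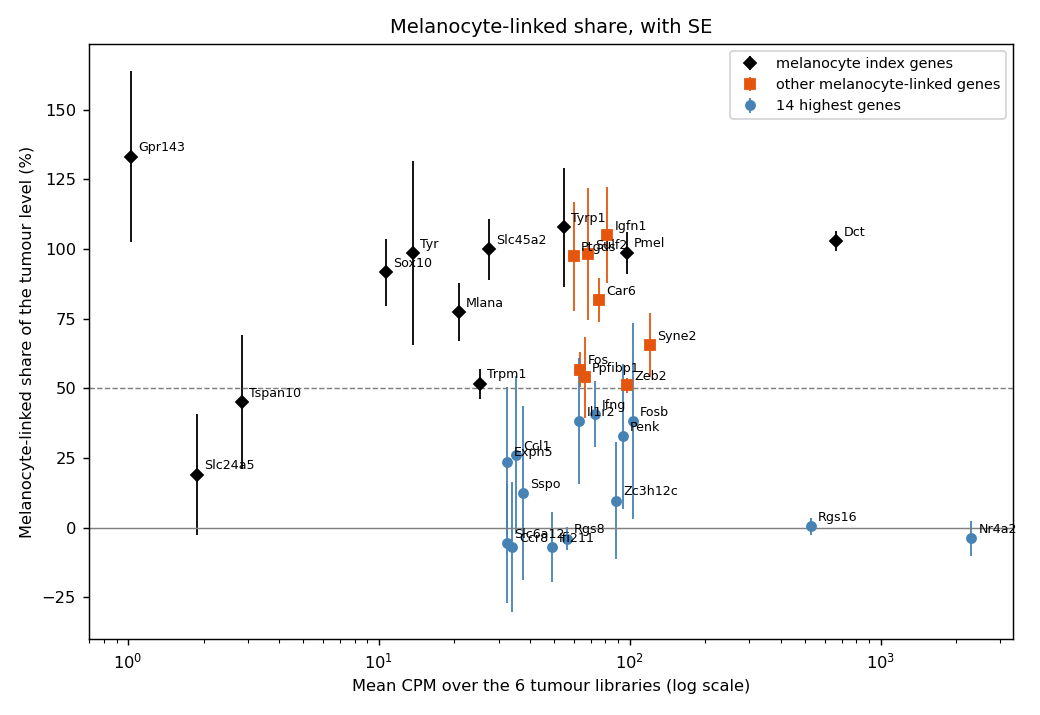
Melanocyte-linked share (y axis, percent, bars are SE) against mean CPM over the 6 tumour libraries (x axis, log scale), for the melanocyte index genes, the 8 other linked genes and the 14 genes with the highest fold changes outside the markers and linked genes. Dct, Tyr and Tyrp1 lie near 100%, some other index genes lie lower, Rgs16, Nr4a2 and Rgs8 lie near 0, and the dashed line marks 50%.

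Over the whole table, 6214 genes were called higher in the tumour libraries (37.8%) and 5493 lower (33.4%), at an adjusted p under 0.05. Each count of list members called higher or lower below is to be read beside these shares. At least 2-fold changes made up 3839 of the higher and 2819 of the lower calls, and at least 16-fold changes 1275 and 222. An average of groups can be carried by 1 of them, so each tumour group was also tested against each comparison group. In all 4 tests, 3724 genes were higher (22.7%) and 2931 lower (17.8%). For 3921 genes (23.9%) all 6 tumour libraries lay above all 6 others, and for 3206 (19.5%) below. When the counts that scaled with the index were subtracted from each tumour library (1.70% to 6.91% of its gene counts), 5261 of the 6214 higher genes were still called higher (84.7%). Of the 17 melanocyte lineage and melanoma genes called higher, 7 also kept their calls, among them Mlana and Trpm1 (log2 fold changes 5.84 and 2.71 after it). A call kept after the subtraction therefore does not place a transcript outside melanoma cells. The subtraction moved the fold of 44 named genes by over 1.5 times; the values of members described below stand with the gene or in the next paragraph. Spans of Irf8, Gins2, Cdc45, Cyp51, Ppp1r15a, Itgae, Tpi1, Ube2c, Grn, Rtp4, Sulf2 and Ppfibp1 overlap another gene, so their unstranded counts are less certain.

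**Figure D3:**
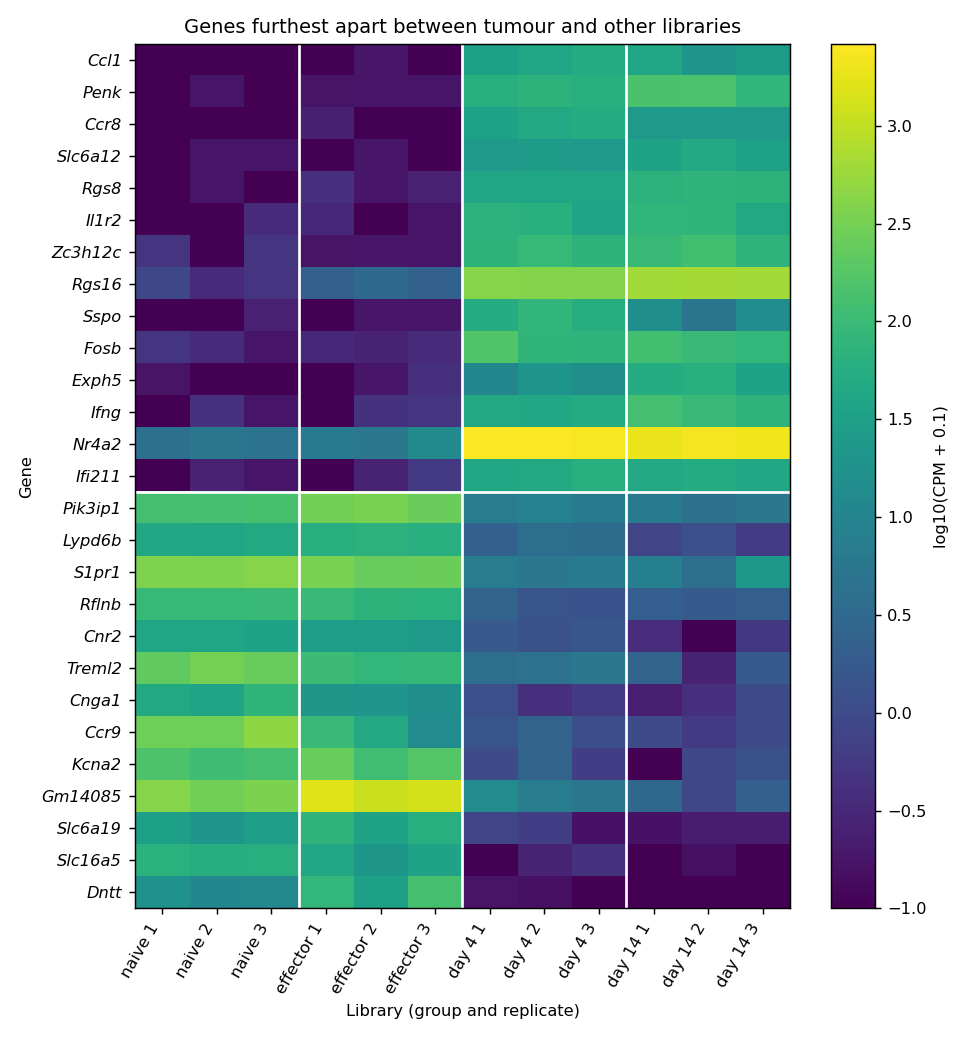
Levels, as log10(CPM + 0.1), of the 14 genes furthest above and 13 of the 14 furthest below in the tumour libraries (rows) in each of the 12 libraries (columns, by group and replicate). In every row the 6 tumour libraries lie on 1 side of the 6 others, and Sspo, Ccr8 and Exph5 show a step between day 4 and day 14.

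Among the genes described below that kept their calls, some had fitted log2 fold changes closer to 0 after the subtraction. The value went from 7.76 to 6.36 for Adgrg1, from 9.07 to 7.21 for Cd63, from 8.05 to 7.26 for Dusp14, and from 7.04 to 6.31 for Mt1. It went from 8.53 to 7.94 for Cx3cr1 and from 9.32 to 8.72 for Il1r2. These 6 genes were near 0 in a comparison group, so their fitted values depend on the prior count and serve only for this comparison. Klf4 went from 7.89 to 6.19, Gzmb from 5.93 to 4.83 (adjusted p = 0.014), Fosb from 8.82 to 8.22, Havcr2 from 7.26 to 6.49, Aldoc from 2.93 to 2.32 and Grn from 1.98 to 1.27. Several genes that were lower in tumours had still lower fitted values. The subtraction takes out counts that scaled with the index, so a high share lowers the value by construction. Ifngr2 went from -3.70 to -8.68, Iigp1 from -2.81 to -9.35, Irgm1 from -2.55 to -4.33 and Ifit1 from -2.91 to -4.93. Gm14085 went from -7.43 to -8.66 and Slc6a19 from -7.47 to -8.06. Without day 14 replicate 1 the shares were 54.6% ± 68.02 for Ifngr2 and 123.8% ± 60.62 for Iigp1. Those of Irgm1 and Ifit1 were 43.1% ± 50.04 and -106.5% ± 32.46, and none of these genes met the rule for linked genes.

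Of the function lists, that of secreted proteins had the highest median. Of 32 cytokine and chemokine genes tested, 29 rose and 3 fell, with a median log2 fold change of 5.19 (4.97 with groups at 0 set to a floor of 3 counts), beside 0.05 over all genes tested. Ccl1 (ENSMUSG00000020702.13, chr11:82176657-82305690, - strand), the chemokine ligand of CCR8, held 32.6, 39.3 and 51.5 CPM in the day 4 libraries and 40.9, 20.6 and 25.6 CPM in the day 14 libraries, from 3261 counts, against 1 count in all 6 comparison libraries, a ratio of 2695 (95% interval 483 to 106470.0). Without effector replicate 2 the ratio was at least 764. The melanocyte-linked share of Ccl1 was 43.6% ± 19.7 without day 4 replicate 3 and -93.3% ± 27.9 without day 14 replicate 1, so it cannot be placed. Penk (ENSMUSG00000045573.9, chr4:4133531-4138819, - strand), which encodes the precursor of the enkephalin opioid peptides, held 60.4, 71.1 and 61.2 CPM in the day 4 libraries and 143, 148 and 80.0 CPM in the day 14 libraries. Penk had 4 counts in the comparison libraries against 8929 in the tumour libraries, a ratio of 1845 (95% interval 720.2 to 6772). Penk was higher in each day 14 library than in each day 4 library. Its melanocyte-linked share was 32.9% ± 26.0, an error too wide to place it. The share was -4.22% ± 8.95 without day 14 replicate 3 and 87.6% ± 79.5 without day 14 replicate 1, and Penk met the rule for linked genes without day 14 replicate 2 (55.2% ± 11.9).

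Ifng, the interferon gamma gene, held 46.2, 44.8 and 52.4 CPM in the day 4 libraries and 123, 93.7 and 75.8 CPM in the day 14 libraries against 0 to 0.387 CPM, and its log2 fold change was 8.55 ± 0.31, adjusted p = 3.5e-11 (9.34 without naive replicate 2). Its highest level was in day 14 replicate 1, the library with the highest index, its share was 40.6% ± 11.8, and after the subtraction its log2 fold change was 7.71 (adjusted p = 1.6e-08). Without that library the share of Ifng was 12.3% ± 37.5. Ccl3, a chemokine for monocytes and T cells, held 33.5, 30.1 and 56.9 CPM in the day 4 libraries and 290.0, 208 and 125 CPM in the day 14 libraries against 0 to 1.63 CPM, a ratio of 271 (95% interval 195 to 387), or 488 without effector replicate 2. Ccl3 had a share of 79.1% ± 27.6 and was not called after the subtraction (adjusted p = 0.91), so its rise cannot be separated from the index in these libraries. Tnfsf4, the OX40 ligand, stood in contrast at 297, 333 and 262 CPM in the day 4 libraries and 183, 162 and 186 CPM in the day 14 libraries against 0.239 to 1.55 CPM (log2 fold change 8.25 ± 0.13, adjusted p = 1.8e-17), with a share of 5.46% ± 12.3. The 3 members that fell were Ltb, Il16 and Tnfsf8, with log2 fold changes of -1.80, -2.79 and -1.10.

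Receptors changed in both directions. Ccr8 (ENSMUSG00000042262.5, chr9:120092114-120094906, + strand), the receptor of CCL1 and well known from tumour regulatory T cells, held 33.2, 46.1 and 53.3 CPM in the day 4 libraries and 24.8, 23.3 and 23.7 CPM in the day 14 libraries. The comparison libraries had 2 Ccr8 counts against 3182, a ratio of 1315 (95% interval 364 to 10861), at least 719 without effector replicate 1. The ligand Ccl1 and its receptor Ccr8 were thus both near 0 outside tumours and present in every tumour library. Il1r2, the decoy receptor that binds interleukin 1 without signalling, held 69.7, 62.8 and 37.3 CPM in the day 4 libraries and 81.9, 78.4 and 48.1 CPM in the day 14 libraries against 0 to 0.23 CPM, a ratio of 699 (95% interval 339 to 1740.0). The Il1r2 share was 34.8% ± 24.75 without day 4 replicate 1. Without day 14 replicate 1, Il1r2 met the rule for linked genes (132.9% ± 9.19), so it cannot be placed. Of 23 residency and chemokine receptor genes, 14 rose and 5 fell (median 0.91), beside 37.8% and 33.4% of all genes. With the groups merged into a tumour and a comparison mean in the fit, 8 rose. Cx3cr1, the fractalkine receptor, held 9.90, 7.75 and 17.3 CPM in the day 4 libraries and 39.0, 45.4 and 20.2 CPM in the day 14 libraries and 4 counts in all comparison libraries, a ratio of 458 (95% interval 179 to 1684); it overlaps several genes. Ccrl2, an atypical chemokine receptor, was at 28.4 to 54.7 against 0.216 to 1.93 CPM (log2 fold change 5.87 ± 0.38, 6.77 without effector replicate 3). Itgae, the CD103 integrin of resident T cells in epithelia, went the other way, at 5.79, 13.3 and 8.02 CPM in the day 4 libraries and 10.5, 5.29 and 10.6 CPM in the day 14 libraries against 112 to 617 CPM (log2 fold change -4.61 ± 0.44, adjusted p = 1.5e-05).

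Of 13 costimulatory receptors tested, 6 rose and 7 fell, with a median of -0.58, beside 37.8% and 33.4% of all genes. Tnfrsf9, the 4-1BB gene induced by T cell receptor signalling, held 419, 378 and 408 CPM in the day 4 libraries and 449, 438 and 383 CPM in the day 14 libraries against 1.83 to 6.81 CPM (log2 fold change 6.62 ± 0.12, adjusted p = 1.3e-16). The effector libraries, stimulated with antigen, are part of that low range. Tnfrsf4, the OX40 gene and receptor of the Tnfsf4 product, held 204, 198 and 210.1 CPM in the day 4 libraries and 178, 166 and 159 CPM in the day 14 libraries against 3.03 to 7.58 CPM (5.08 ± 0.11, adjusted p = 2.7e-15). Tnfrsf1b, a receptor of tumour necrosis factor, was at 257 to 433 against 28.8 to 80.2 CPM. Tnfrsf26 fell to 20.6, 17.3 and 9.95 CPM in the day 4 libraries and 5.02, 4.17 and 6.60 CPM in the day 14 libraries from 132 to 295 CPM, and Tnfrsf25, Cd40lg and Tnfrsf14 had log2 fold changes of -4.39, -2.30 and -1.81. The melanocyte-linked shares of Tnfrsf9, Tnfrsf4 and Tnfrsf1b were 8.59% ± 6.11, 5.87% ± 3.47 and -7.24% ± 6.71. Spans of Tnfrsf9 and Camta1 overlap on opposite strands.

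Among cytokine receptors, 8 of 25 rose and 13 fell, beside 37.8% and 33.4% of all genes, so the rises are no result about the list. Il7r, the interleukin 7 receptor that sustains naive and memory cells, fell to 57.8, 82.4 and 104 CPM in the day 4 libraries and 52.2, 22.9 and 69.9 CPM in the day 14 libraries from 662 to 1410.0 CPM (log2 fold change -3.92 ± 0.30, adjusted p = 3.0e-06). Il18rap, a signalling chain of the interleukin 18 receptor, rose to 433 to 552 from 13.5 to 82.7 CPM. Il2ra, CD25, was low in naive cells (0.961, 1.75 and 1.68 CPM) and present in effector cells (101, 193 and 188 CPM) and tumour cells (159.5 to 301 CPM). Its call (log2 fold change 4.00 ± 0.24) was lost when the groups were merged into 2 means (adjusted p = 0.21). Ifngr2, a chain of the interferon gamma receptor, fell to 2.49, 2.40 and 1.40 CPM in the day 4 libraries and 5.02, 1.76 and 2.30 CPM in the day 14 libraries from 20.2 to 45.4 CPM. The Ifngr2 level in day 14 replicate 1 was the highest of the tumour libraries, and its share was 92.3% ± 19.4, or 54.6% ± 68.0 without that library.

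Feedback regulators of T cell receptor and G protein signalling rose broadly: 26 of 31 higher, 2 lower, median 2.07, beside 37.8% and 33.4% of all genes. Rgs16 (ENSMUSG00000026475.7, chr1:153740349-153745468, + strand), a GTPase activator that ends signalling of chemokine receptors, held 416, 398 and 393 CPM in the day 4 libraries and 649, 672 and 639.9 CPM in the day 14 libraries against 0.239 to 3.10 CPM (log2 fold change 8.85 ± 0.13, adjusted p = 1.6e-17). Its replicates lay close together within each day, and its share was 0.462% ± 3.02. Rgs8 of the same family, chiefly known from the nervous system, held 39.2, 40.2 and 39.6 CPM in the day 4 libraries and 69.9, 76.1 and 71.3 CPM in the day 14 libraries and 8 counts in all comparison libraries, a ratio of 550.4 (95% interval 279 to 1276), or 903 without effector replicate 1. The dual specificity phosphatases, which switch off MAP kinases, were higher in the tumour libraries too. Dusp4 held 317, 271 and 263 CPM in the day 4 libraries and 215, 195 and 208 CPM in the day 14 libraries against 0.517 to 1.12 CPM (log2 fold change 8.22 ± 0.12, adjusted p = 1.8e-17). Dusp14 held 119, 70.0 and 60.5 CPM in the day 4 libraries and 51.6, 29.6 and 34.3 CPM in the day 14 libraries, a ratio of 199 (95% interval 133 to 315), or 300.0 without effector replicate 2. Dusp1, an immediate early phosphatase gene that overlaps Ergic1, held 388, 394 and 337 CPM in the day 4 libraries and 634, 474 and 411 CPM in the day 14 libraries against 5.10 to 10.3 CPM, with a share of 36.7% ± 2.32. Dgka, which consumes diacylglycerol below the receptor, and Socs3 were the 2 that fell, with log2 fold changes of -3.22 and -0.66. Spans of Dgka and Pmel overlap on opposite strands, so the unstranded counts of Dgka are less certain.

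Transcription factors of the exhaustion list rose in 17 of 19 cases (median 2.67), beside 37.8% of all genes. Of these factors, 1 was called lower in DESeq2, with no filter on low counts, without naive replicate 2 and without effector replicate 3. Nr4a2 (ENSMUSG00000026826.13, chr2:57106830-57124003, - strand), an orphan nuclear receptor induced by T cell receptor signalling, held 2620.0, 2518 and 2369 CPM in the day 4 libraries and 1959, 2253 and 2082 CPM in the day 14 libraries against 4.06 to 12.9 CPM. Its log2 fold change was 8.52 ± 0.21, adjusted p = 1.6e-11, and its share was -3.79% ± 6.28. Nr4a3 held 1988, 1599 and 1808 CPM in the day 4 libraries and 1186, 1031 and 1251 CPM in the day 14 libraries against 9.88 to 19.8 CPM, and Nr4a1 114 to 156 against 1.55 to 11.3 CPM, with log2 fold changes of 6.77 ± 0.20 and 5.18 ± 0.19. All 3 NR4A genes were thus higher in each tumour library than in each comparison library. Bhlhe40, a repressor linked to cytokine production and residency, held 928, 975 and 887 CPM in the day 4 libraries and 1088, 955 and 1031 CPM in the day 14 libraries. It was higher in effector than in naive cells (12.9, 27.3 and 15.8 against 1.18, 0.717 and 0.536 CPM), and its log2 fold change was 7.96 ± 0.21, adjusted p = 2.8e-11. Tox held 310.3, 416 and 380.4 CPM in the day 4 libraries and 662, 774 and 721 CPM in the day 14 libraries against 33.0 to 114 CPM (2.94 ± 0.09, adjusted p = 1.0e-13). The 2 members not called were Ikzf3 and Hic1.

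Immediate early genes, which respond to receptor signals and also to tissue dissociation, rose in 18 of 21 cases (median 1.92). Fosb, an AP-1 subunit, held 163, 77.6 and 74.6 CPM in the day 4 libraries and 123, 95.4 and 82.6 CPM in the day 14 libraries against 0.0765 to 0.369 CPM (log2 fold change 8.82 ± 0.36, adjusted p = 1.6e-09). Fosl2 was at 272 to 579 against 9.49 to 19.2 CPM, and Gadd45b at 44.3 to 84.3 against 0.887 to 8.60 CPM. The tumour libraries came from sorted tissue and the others from lymph nodes or culture. The handling of the samples and the tumour therefore cannot be told apart, for this list or for any other. The same limit holds for the rises of the NR4A genes, Dusp1, Crem, Gem and Ppp1r15a. Zc3h12c, an RNase of the family that degrades cytokine transcripts, held 72.4, 91.5 and 72.9 CPM in the day 4 libraries and 99.3, 119 and 75.3 CPM in the day 14 libraries, from 8369 counts against 13, a ratio of 532 (95% interval 311 to 999.6). Its share was 9.71% ± 21.0.

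The remaining 4 of the 14 genes furthest above stood in no function list. Slc6a12, a transporter of betaine and GABA, held 24.8, 27.2 and 23.2 CPM in the day 4 libraries and 36.0, 49.9 and 34.0 CPM in the day 14 libraries and 3 counts in all comparison libraries, a ratio of 852 (95% interval 291 to 4132). Exph5, a RAB27 effector of vesicle transport, held 10.5, 19.2 and 15.6 CPM in the day 4 libraries and 54.1, 57.9 and 36.3 CPM in the day 14 libraries, a ratio of 427 (95% interval 196 to 1164), or 1068 without effector replicate 3. Sspo, the gene of the large secreted glycoprotein SCO-spondin, held 55.2, 79.8 and 55.5 CPM in the day 4 libraries and 15.6, 5.00 and 14.5 CPM in the day 14 libraries, a ratio of 718 (95% interval 280.1 to 2636), or 1194 without naive replicate 3. Exph5 was higher and Sspo lower in each day 14 library than in each day 4 library. Ifi211, of the interferon-inducible p200 family, held 44.2, 47.2 and 58.1 CPM in the day 4 libraries and 46.3, 51.6 and 45.3 CPM in the day 14 libraries, a ratio of 345 (95% interval 192 to 691), or 632 without effector replicate 3. It overlaps its relative Mndal on the same strand, so that its counts are uncertain. Melanocyte-linked shares were -5.59% ± 21.3 for Slc6a12, 23.7% ± 26.9 for Exph5, 12.4% ± 31.2 for Sspo and -6.95% ± 12.4 for Ifi211.

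Cytotoxic granule genes rose in 12 of 19 cases and fell in 3 (median 1.27), beside 37.8% and 33.4% of all genes. Gzmb, the main granule protease of CD8 effector cells, held 275, 228 and 385 CPM in the day 4 libraries and 1304, 965 and 949.8 CPM in the day 14 libraries, beside 1.55, 0.956 and 0.765 CPM in naive and 10.9, 189 and 32.3 CPM in effector libraries. Its log2 fold change was 5.93 ± 0.78, adjusted p = 1.3e-04, and 6.85 without effector replicate 2, which held the most of the effector libraries. Gzmb was not called in each of the 4 group pairs. Gzmk, a granzyme of memory and exhausted cells that overlaps Esm1 on the other strand, held 26.6, 39.5 and 42.0 CPM in the day 4 libraries and 211, 268 and 237 CPM in the day 14 libraries, a ratio of 103 (95% interval 85.0 to 125), or 322 without effector replicate 2. Gzmc held 10.8 to 29.3 against 0 to 0.919 CPM, with a log2 fold change of 6.11 ± 0.56 that was 7.39 without effector replicate 2 and 6.95 without naive replicate 3. Several granzyme genes are close relatives, so their counts are less certain. Serpinb6b, a protease inhibitor, was at 119 to 171 against 10.4 to 26.6 CPM.

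Guidance and adhesion genes rose in 22 of 29 cases and fell in 4 (median 1.92), beside 37.8% and 33.4% of all genes. With the groups merged into 2 means, 2 fell. Sema4c, a transmembrane semaphorin, held 49.5, 56.6 and 57.3 CPM in the day 4 libraries and 33.1, 39.5 and 30.3 CPM in the day 14 libraries against 21 counts in all comparison libraries, a ratio of 163 (95% interval 107 to 264). Sema6d held 32.6, 71.4 and 78.4 CPM in the day 4 libraries and 231, 241 and 226 CPM in the day 14 libraries against 0.153 to 2.67 CPM (log2 fold change 6.99 ± 0.38, adjusted p = 1.3e-07). Alcam, the ligand of CD6, was at 1.40, 0.239 and 0.459 CPM in naive, 12.3, 25.0 and 27.1 CPM in effector and 167 to 246 CPM in tumour libraries. Adgrg1, the adhesion receptor GPR56 of cytotoxic cells, held 17.4, 23.7 and 18.2 CPM in the day 4 libraries and 89.5, 105 and 47.2 CPM in the day 14 libraries, a ratio of 222 (95% interval 140.1 to 374), or 669 without naive replicate 2. The shares of Sema4c and Sema6d were -2.71% ± 11.2 and -4.57% ± 13.6.

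Cell cycle genes were higher in the tumour libraries. All 23 DNA replication genes and all 22 mitosis genes rose, with medians of 2.82 and 3.85, against 37.8% of all genes. DESeq2 gave 6 of the mitosis genes no p and called the other 16 higher. Ube2c, a ubiquitin ligase subunit of mitotic exit, held 275, 224 and 316 CPM in the day 4 libraries and 237, 280.0 and 359.6 CPM in the day 14 libraries, beside 4.66, 7.88 and 1.53 CPM in naive and 1.94, 72.1 and 6.50 CPM in effector libraries. Effector replicates 1 and 3 lay within the naive range of Ube2c, and the part of T cell activation in the cell cycle rises was not tested. Effector replicate 2 held the most Ube2c of the effector libraries. Without it, the log2 fold changes of Ube2c, Ccnb2, Bub1, Cdk1, Mcm10 and Cdc6 went from 4.66, 4.38, 4.46, 4.38, 4.71 and 4.32 to 5.99, 5.56, 5.44, 5.00, 5.60 and 4.97. Gins2, a subunit of the replicative helicase, held 48.4 to 70.2 against 2.76 to 5.85 CPM (4.11 ± 0.17, adjusted p = 4.7e-12), and Cdc45 70.4 to 84.0 against 2.59 to 11.5 CPM; both overlap another gene on the other strand. Shares of the 8 named cell cycle genes lay between -33.6% ± 4.82 for Ccnb2 and -8.92% ± 20.8 for Cdc6; without day 14 replicate 1, Mcm10 had 35.2% ± 11.6 and Cdc6 59.4% ± 36.2.

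Metabolic lists moved upward with smaller folds. Glycolysis genes rose in 19 of 22 cases (median 1.66) and fell in 2 (in 2 under total-count scaling and without naive replicate 3 or effector replicate 2, and in 1 under every other alternative run). Hk2, the hexokinase of the first glycolytic step, held 93.2, 107 and 85.9 CPM in the day 4 libraries and 103, 77.5 and 89.2 CPM in the day 14 libraries against 1.03 to 12.1 CPM (log2 fold change 4.81 ± 0.19, adjusted p = 6.3e-11). Slc16a3, the lactate exporter MCT4, held 24.9 to 39.4 against 0.478 to 4.95 CPM, and Tpi1 343 to 455 against 20.9 to 49.7 CPM. Aldoc (log2 fold change 2.93 ± 0.36) lost its call with 2 group means (adjusted p = 0.067). Oxidative phosphorylation genes rose in 20 of 22 cases, with a median of 0.68, led by Cox7a2 (1.35 ± 0.08), Atp5b (1.20 ± 0.06), Ndufa4 (1.15 ± 0.09) and Cox5a (1.13 ± 0.16). Cholesterol synthesis genes rose in 19 of 23 cases and fell in 1 (in 2 after melanoma subtraction and in 3 without effector replicate 2), with a median of 0.95. Idi1 and Cyp51, enzymes of the sterol pathway, were at 22.1 to 44.5 and 136 to 216 CPM against 2.30 to 5.65 and 16.9 to 39.8 CPM. Insig1, a sterol-regulated brake on the pathway, rose to 100.2 to 136 from 22.7 to 27.4 CPM. Abcg1, a cholesterol exporter, fell to 9.85 to 15.3 from 55.5 to 87.5 CPM (log2 fold change -2.43 ± 0.10, adjusted p = 1.4e-12).

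The hypoxia list rose in 17 of 19 cases and fell in 2 (median 0.93), beside 37.8% and 33.4% of all genes. After the subtraction, 13 of the hypoxia genes were still called higher. Bnip3, a mitophagy receptor, was linked, with a share of 62.4% ± 3.95 and a log2 fold change of 2.01 ± 0.23 that the subtraction brought to 0.70. Car9, a membrane carbonic anhydrase induced by hypoxia, held 12.2, 15.2 and 18.2 CPM in the day 4 libraries and 26.2, 8.17 and 9.57 CPM in the day 14 libraries against 0.369 to 1.35 CPM. Car9 had a share of 78.1% ± 32.0 and was not called after the subtraction (adjusted p = 0.1). Ier3 kept a log2 fold change of 1.86 after it. Pdk1, the kinase that closes pyruvate dehydrogenase and a known hypoxia target, fell to 96.3, 79.3 and 68.7 CPM in the day 4 libraries and 61.2, 51.6 and 52.1 CPM in the day 14 libraries from 259 to 355 CPM (log2 fold change -2.23 ± 0.10, adjusted p = 1.0e-11). Without day 14 replicate 1 the share of Car9 was -74.9% ± 28.4 and that of Bnip3 71.1% ± 10.2, so the Car9 share rested on that library. Of the 4 hypoxia genes named, Pdk1 moved against the list.

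Stress and survival lists also rose. Of 21 unfolded protein and integrated stress response genes, 18 rose and 3 fell (median 1.10). Hspa5, the chaperone BiP, held 1809, 1548 and 1336 CPM in the day 4 libraries and 1673, 1554 and 1653 CPM in the day 14 libraries against 325 to 539.6 CPM (1.97 ± 0.10, adjusted p = 2.7e-10), and Ppp1r15a, which reverses the stress block on translation, 125 to 189.9 against 14.1 to 25.3 CPM. Asns, asparagine synthetase, was near 0 in naive libraries (0.0739, 0.0796 and 0 CPM), at 4.75, 2.92 and 10.1 CPM in effector and 17.6 to 43.9 CPM in tumour libraries; the ratio over all libraries was 10.1 (95% interval 8.86 to 11.6), and 19.2 without effector replicate 3. Of 22 apoptosis and survival genes, 15 rose and 5 fell, beside 37.8% and 33.4% of all genes. The anti-apoptotic genes Bcl2a1d and Bcl2l1 held 87.6 to 105 and 21.5 to 40.2 CPM against 0.319 to 1.89 and 1.62 to 4.62 CPM, while Bcl2 itself fell (log2 fold change -0.51). Bcl2a1d has near-identical copies, so its count is uncertain. The pro-apoptotic Pmaip1 rose as well (3.25 ± 0.13). Of 16 glucocorticoid, prostaglandin and cyclic AMP response genes, 13 rose and 2, Tsc22d3 and Sgk1, fell (both lost the call with 2 group means, and 1 fell with no filter on low counts and without naive replicate 2, effector replicate 1, day 4 replicate 2 or 3, or day 14 replicate 2 or 3). Crem, a cyclic AMP responsive factor, held 181, 102 and 122 CPM in the day 4 libraries and 211, 233 and 157 CPM in the day 14 libraries against 6.06 to 9.98 CPM (4.29 ± 0.18, adjusted p = 4.9e-10), and Gem, a small GTPase, 87.5 to 153 against 0.369 to 2.75 CPM. Tsc22d3, the glucocorticoid-induced GILZ gene, had a log2 fold change of -0.60 (adjusted p = 1.6e-04, edgeR quasi-likelihood test). Of 18 metallothionein and redox genes 13 rose and 1 fell (11 and 2 after melanoma subtraction). Txn1, thioredoxin, was among those that rose, at 186 to 255 against 24.9 to 92.4 CPM. Mt1 had 0 counts in naive libraries, 0.791, 3.53 and 1.01 CPM in effector and 11.2 to 26.8 CPM in tumour libraries, a ratio of 20.2 (95% interval 15.8 to 26.4), or 46.6 without effector replicate 2.

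**Figure D4:**
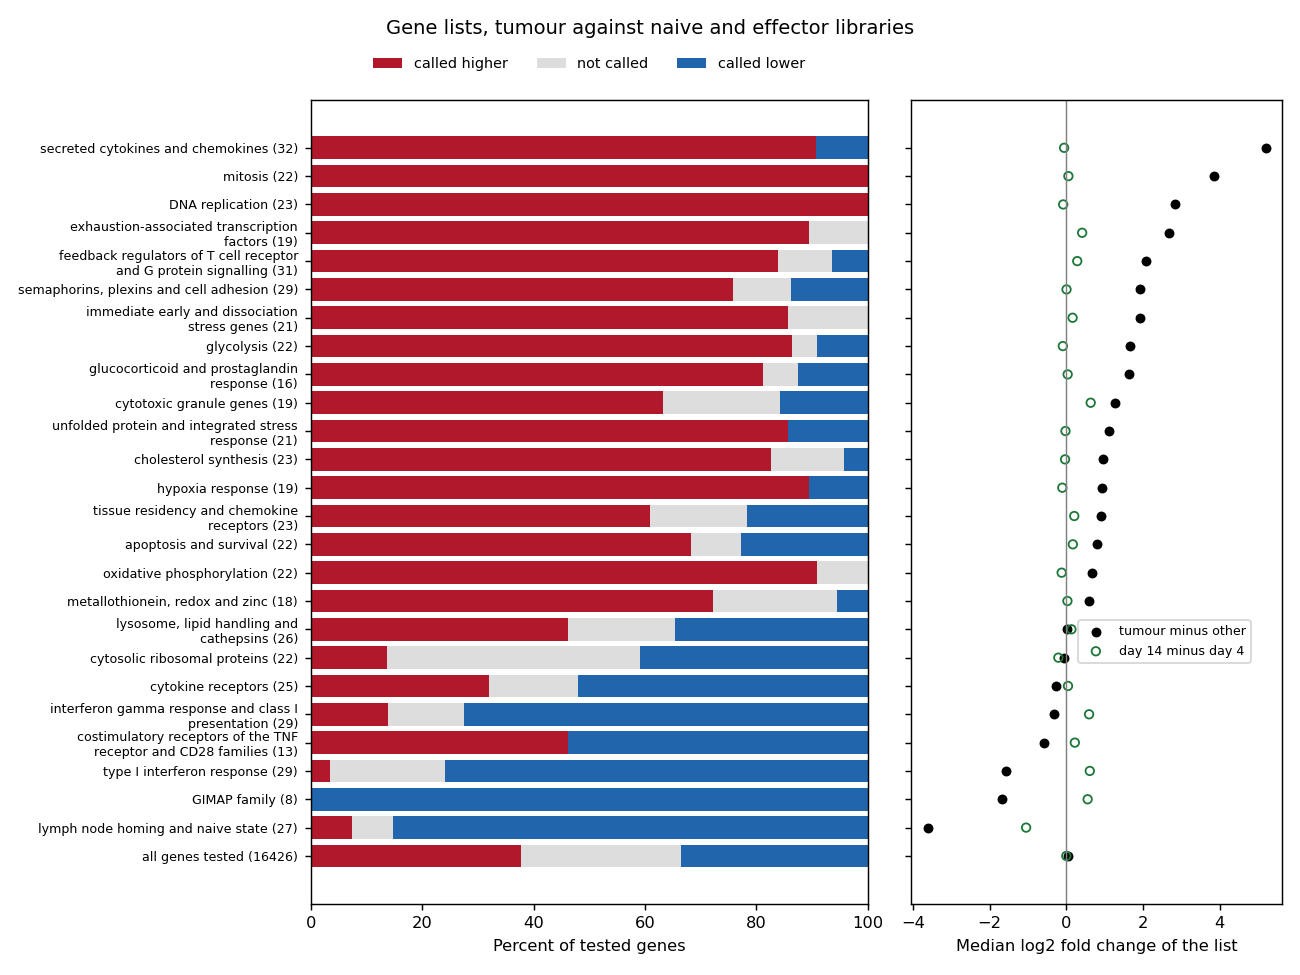
Left, the percentage of each list's tested genes (number in brackets) called higher (red), not called (grey) or called lower (blue) in the tumour libraries. Right, the list's median log2 fold change, tumour minus other (filled) and day 14 minus day 4 (open); mitosis is red throughout, GIMAP blue throughout, and the homing list has the lowest median.

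Lymph node homing genes had the lowest median of the function lists. Of 27 lymph node homing and naive state genes tested, 23 fell (against 33.4% of all genes) and 2 rose, with a median of -3.61. S1pr1 (ENSMUSG00000045092.8, chr3:115710433-115715072, - strand), the receptor for exit from lymph nodes, fell to 7.19, 5.59 and 6.15 CPM in the day 4 libraries and 7.86, 3.88 and 22.3 CPM in the day 14 libraries from 244 to 418 CPM (log2 fold change -5.28 ± 0.39, adjusted p = 2.3e-06). The highest tumour library, day 14 replicate 3, lay below every comparison library. The effector libraries are part of the 244 to 418 CPM range. Ccr9, the gut homing receptor, was at 277, 282 and 458 CPM in naive, 95.8, 46.7 and 13.5 CPM in effector and 0.47 to 2.40 CPM in tumour libraries, and shares its locus with Lztfl1 and Slc6a20a on the other strand. Treml2 fell to 0.176 to 5.55 from 84.2 to 314 CPM. The 2 that rose were Btg1, by 0.46, and Klf4, at 141, 50.7 and 41.3 CPM in the day 4 libraries and 44.4, 29.5 and 20.3 CPM in the day 14 libraries against 0 to 0.443 CPM (7.89 ± 0.59, adjusted p = 1.3e-06).

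Signalling and transport genes were also among the 14 furthest below. Pik3ip1, an inhibitor of PI3 kinase that activated T cells lose, fell to 6.97, 8.71 and 6.35 CPM in the day 4 libraries and 6.34, 4.23 and 5.51 CPM in the day 14 libraries from 124 to 345 CPM (-4.97 ± 0.11, adjusted p = 5.7e-15). That range includes the effector libraries, which held at least 124 CPM after 5 days with antigen. The part of T cell activation in the differences between tumour and comparison libraries was not tested. Cnr2, the cannabinoid receptor of immune cells, fell to 1.61, 1.14 and 1.40 CPM in the day 4 libraries and 0.264, 0 and 0.424 CPM in the day 14 libraries from 23.1 to 41.3 CPM (-5.83 ± 0.23, adjusted p = 1.7e-12). Kcna2, a voltage-gated potassium channel, fell to 0 to 2.46 from 112 to 247 CPM, and Cnga1, a cyclic nucleotide-gated channel, to 0.132 to 1.10 from 15.5 to 78.5 CPM. Rflnb, a filamin-binding protein, fell to 1.20 to 2.49 from 65.3 to 93.5 CPM, and Lypd6b to 0.484 to 3.84 from 38.8 to 67.9 CPM. Dntt, the terminal transferase of lymphocyte development, had 17.7, 11.5 and 11.8 CPM in naive and 84.4, 32.9 and 130.3 CPM in effector libraries but 2 counts in all tumour libraries. The Dntt ratio of comparison to tumour libraries was 2287 (95% interval 633 to 18892), with 1522 to 3910.1 on leaving out single libraries; effector replicate 3 and day 4 replicates 1 and 2 moved it most. Slc16a5, of the monocarboxylate transporter family, had 9 counts in tumour libraries, a ratio of 499.9 (95% interval 263 to 1094), or 946 without day 4 replicate 3. Slc6a19, an amino acid transporter, fell to 0.066 to 0.733 from 21.3 to 75.2 CPM. The gene model Gm14085, a relative of the nucleoside transporter gene Slc28a2 and so less certain in its counts, fell to 0.764 to 13.2 from 303 to 1586 CPM.

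Interferon-induced genes were mostly lower although Ifng itself was higher. Of 29 type I interferon response genes, 22 fell and 1 rose, with a median of -1.58. The 1 that rose, Isg20 (log2 fold change 0.28), lost its call with 2 group means, after the subtraction, and without naive replicate 1 or 3, effector replicate 1 or 3, day 4 replicate 2 or day 14 replicate 1. Oas2, an antiviral sensor of double-stranded RNA, was at 104, 168 and 171 CPM in naive cells, 2.37, 6.11 and 2.86 CPM in effector cells and 1.47 to 2.38 CPM in tumour cells. Oas3 was at 50.9 to 105 CPM outside tumours and 4.84 to 16.7 CPM in tumour libraries (-3.21 ± 0.27, adjusted p = 1.9e-06), Ifit1 at 15.1 to 69.1 and 1.47 to 11.9 CPM, and Rtp4 at 16.1 to 63.1 and 1.91 to 6.60 CPM. Oas and Ifit genes have close relatives. Of 29 genes of the interferon gamma response and class I presentation, 21 fell and 4 rose, with a median of -0.32; 11 fell when the groups were merged into 2 means. Iigp1, an interferon-induced GTPase gene, fell to 12.7, 9.31 and 8.35 CPM in the day 4 libraries and 35.7, 18.0 and 9.14 CPM in the day 14 libraries from 31.9 to 418 CPM. Irgm1, of the same GTPase family, fell to 14.0, 20.1 and 14.7 CPM in the day 4 libraries and 41.5, 25.6 and 19.6 CPM in the day 14 libraries from 63.8 to 177 CPM. Both were highest among tumour libraries in day 14 replicate 1. Irf8, a transcription factor of myeloid cells that is also induced in activated CD8 T cells, rose to 136, 134 and 151 CPM in the day 4 libraries and 125, 114 and 93.1 CPM in the day 14 libraries from 1.73 to 8.52 CPM (4.91 ± 0.37, adjusted p = 2.0e-06), and Ifi30, a lysosomal thiol reductase, to 11.7 to 20.5 from 2.01 to 4.73 CPM.

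All 8 genes of the GIMAP family, GTPases of lymphocyte survival, fell, with a median of -1.68. Gimap3 fell to 100.1, 115 and 117 CPM in the day 4 libraries and 187, 170.4 and 181 CPM in the day 14 libraries from 494 to 986 CPM (-2.33 ± 0.06, adjusted p = 1.8e-14), and Gimap4 to 399, 528 and 543 CPM in the day 4 libraries and 818, 786 and 841 CPM in the day 14 libraries from 1272 to 3294 CPM. Of 22 cytosolic ribosomal protein genes 3 rose and 9 fell, with a median of -0.07, close to that of all genes. The split was 7 and 3 after the subtraction, where the median turned sign, 6 and 3 without day 14 replicate 1, and 1 and 3 with 2 group means. With no filter on low counts 5 rose, and 4 or 5 fell with RLE factors, in DESeq2 and without naive replicate 2 or 3, effector replicate 3 or day 4 replicate 2. Of 26 lysosomal genes, 12 were higher and 9 lower, close to the 37.8% and 33.4% of all genes, with a median of 0.02 whose sign turned after the subtraction and without naive replicate 2 or day 14 replicate 1. Cd63, a tetraspanin of lysosomes and melanosomes, had 7 counts in comparison libraries and 43.1, 38.5 and 42.9 CPM in the day 4 libraries and 65.2, 32.3 and 20.8 CPM in the day 14 libraries, with a share of 74.2% ± 14.3. Grn, progranulin, had a share of 42.9% ± 9.88, and Fabp5, a fatty acid binding protein, 24.7% ± 18.4, with a log2 fold change of 3.41 ± 0.19.

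Markers of other cells moved with the tumour groups. Macrophage and monocyte genes rose in 12 of 16 cases (37.8% of all genes rose), with a summed level of 177 to 518 CPM against 12.5 to 36.0 CPM. Dendritic cell and class II genes rose in 8 of 10 cases (147 to 228 against 11.3 to 39.4 CPM), with Cd74, the class II invariant chain, at 78.9, 91.1 and 82.0 CPM in the day 4 libraries and 70.1, 90.6 and 88.9 CPM in the day 14 libraries. Fibroblast genes rose in 6 of 8 cases (101 to 374 against 1.08 to 3.62 CPM). Endothelial genes were too low to be tested in 8 of 10 cases (with no filter on low counts, 5 rose and 1 fell). Vwf, von Willebrand factor, was the 1 that rose, to 1.21 to 8.05 CPM, from 409 counts against 3, a ratio of 113 (95% interval 38.3 to 549). Vwf was linked, with a share of 131% ± 29.3, and was too low to be tested after the subtraction. Pecam1, which T cells also express, fell to 41.2 to 80.8 from 177 to 198 CPM. Neutrophil genes summed to at most 1.40 CPM in any library, with S100a8, S100a9 and Retnlg at 0 in all tumour libraries. B cell genes summed to 17.0 to 37.5 CPM in tumour and 8.41 to 27.1 CPM in comparison libraries. Of 7 CD4 T cell and regulatory T cell genes, 5 rose (2 with 2 group means) and 1 fell, with sums of 1362 to 1767 against 60.5 to 751 CPM. Ctla4, Ikzf2 and Il2ra, which activated CD8 T cells also express, made up most of this sum. Cd4 was at 1.25 to 4.63 CPM in tumour and 0.0719 to 0.946 CPM in comparison libraries (log2 fold change 2.80). Foxp3, the defining factor of regulatory T cells, was not called, at 1.14 to 4.49 against 1.48 to 6.80 CPM. All 3 NK cell genes tested, Eomes, Klrk1 and Nkg7, rose and are also expressed by CD8 T cells, with sums of 883 to 1183 against 209 to 369 CPM. The other 4 NK genes, Ncr1, Klrb1c, Klra8 and Klra4, were too low to be tested. The part of such cells in the rise of Ccr8, Tnfrsf4, Il2ra and the cytotoxic genes was not tested. Apoe, of macrophages and melanoma cells, had a share of 46.2% ± 24.4 and was called after the subtraction (2.71, adjusted p = 4.4e-07). Macrophage and fibroblast sums were highest in day 14 replicate 1, as was the index. Lysosomal genes, Irf8, Ifi30, Cx3cr1, Ccl3 and Mt1 are also expressed by macrophages, and the part of such cells in their rise was not tested.

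Between the tumour times, 1178 genes were higher at day 14 (7.17%) and 806 lower (4.91%); without day 14 replicate 2, 1283 genes in all were called in place of 1984. The replication and mitosis lists had median log2 differences of -0.09 and 0.05 between the times. Cytotoxic genes were higher at day 14 in 9 of 19 cases, led by Gzmk, with a log2 fold change of 2.72 ± 0.46 (adjusted p = 0.0053). Cx3cr1, Adgrg1 and Sema6d were higher by 1.58 ± 0.31, 2.03 ± 0.38 and 1.93 ± 0.36, and Penk by 0.94 ± 0.19 (adjusted p = 0.0036). Rgs16 and Rgs8 were higher by 0.70 ± 0.11 and 0.87 ± 0.14. Ccr8 was lower (-0.89 ± 0.21, adjusted p = 0.012), while its ligand gene Ccl1 was not called (-0.51 ± 0.26, adjusted p = 0.25). Tnfsf4 and Sspo fell from day 4 to day 14 (-0.75 ± 0.11 and -2.44 ± 0.37). Of the homing list, 12 of 27 were lower at day 14 and 4 higher. Of the lists that were lower in tumours, 6 of 8 GIMAP genes and 15 of 29 interferon gamma and class I genes were higher at day 14 than at day 4. In the type I interferon list 11 of 29 were higher and 1 lower. The CD8 T cell identity list had 7 of 12 higher and 0 lower, with a median difference of 0.35, beside 0.55 for GIMAP genes.

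**Figure D5:**
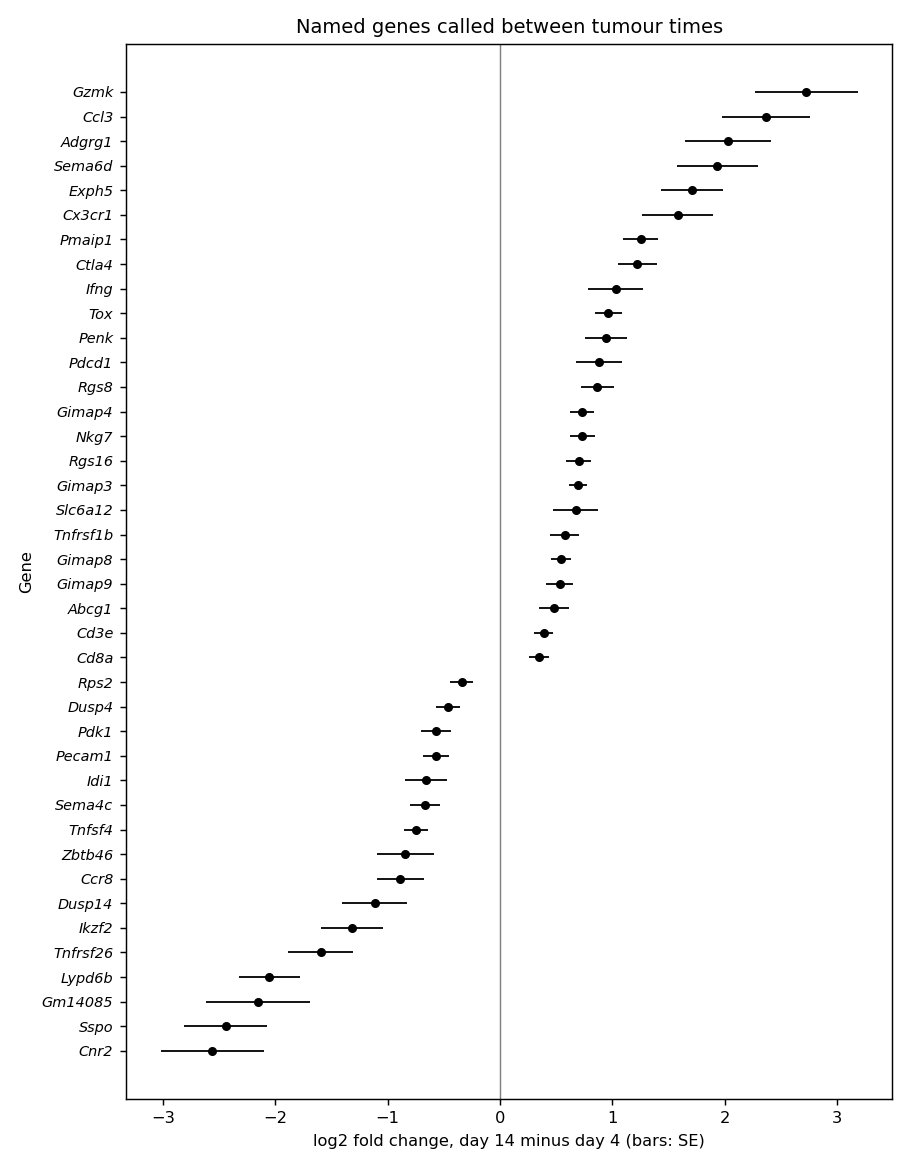
Log2 fold change, day 14 minus day 4 (x axis, bars are SE), for the named genes called between the tumour times (y axis). Gzmk, Ccl3 and Adgrg1 lie furthest to the right and Cnr2, Sspo and Gm14085 furthest to the left.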

How the data were processed

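The 12 libraries were prepared from sorted or cultured cells lysed directly, with mRNA capture and cDNA amplification before tagmentation, per the labels' protocols. Counts of reads per gene were deposited by the authors. Per the submitters' processing notes, fastp 0.19.6 and STAR 2.6.1b were used with build GRCm38; the counting options, and the release of the annotation, were not given in the sources used here. The unstranded counts were used because 49.8% to 49.9% of the strand-specific gene counts lay in the sense direction. Reads mapping to several places (5.90% to 7.29%) are in no gene's count, so near-identical genes are uncertain. Outside genes lay 20.7% to 30.2% of reads, 4.90% to 5.52% did not map and 3.22% to 3.81% were ambiguous; these 4 summary lines were left out. Symbols and spans came from GENCODE M21 (55141 of 55401 identifiers matched). Depth was 11937053 to 17094006 gene counts; no molecular identifiers are described, so intervals cover counting error only.

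All 12 libraries entered 1 quasi-likelihood fit in edgeR 4.0.16 (R 4.3.3) with TMM factors, filterByExpr (16426 genes kept), robust dispersion and 8 residual degrees of freedom. P-values were adjusted by Benjamini-Hochberg over all genes tested. On simulated data for 15783 genes, 92 of 100 genes changed by log2 1 and 96 of 100 by log2 2 were recovered, with 9 false calls. The simulation changed only those genes, equally up and down, and added no tumour transcripts. Its recovery and false calls therefore do not describe the real contrast, in which most genes were called. For genes with a group of 3 counts or fewer, text ratios are pooled counts over 6 libraries with exact 95% conditional intervals, or at least values with a floor of 3 counts over the 6 libraries. The members, the 25 function and 11 marker lists and the 12 index genes were chosen with earlier results of these data known. Named genes were the 14 furthest each way (protein-coding, called, mean log2 CPM at least 4, no overlap between sides, neither inhibitory receptors, markers nor linked), up to 4 called genes per function list (mean log2 CPM at least 3), 2 per marker list, the index genes, a panel of Pdcd1, Havcr2, Tox, Cd8a, Cd3e and Ptprc, and 8 linked genes, 157 in all, of which 2 are not reported here; list members named beyond these were chosen after their values were seen. Alternatives were total-count scaling, RLE factors, DESeq2 1.42.0, 2 filters, a replicate block, 2 group means, subtraction of counts scaling with the index, an index of Dct alone, and leaving out each library.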

Additional observations from a re-analysis of the deposited data

Results flagged for a closer look

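For 40 named genes the difference from the comparison libraries was not the same in the 2 tumour groups, by the edgeR quasi-likelihood test of day 14 minus day 4 (adjusted p under 0.05; 7.17% of all genes tested were higher and 4.91% lower at day 14). Values are log2 fold changes, day 14 minus day 4, and no cause was tested.

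Genes higher in tumour libraries and higher again at day 14 were Gzmk (2.72), Ccl3 (2.37), Adgrg1 (2.03), Sema6d (1.93), Exph5 (1.71), Cx3cr1 (1.58), Pmaip1 (1.25), Ctla4 (1.22), Ifng (1.03), Tox (0.96), Penk (0.94), Pdcd1 (0.88), Rgs8 (0.87), Nkg7 (0.73), Rgs16 (0.70), Slc6a12 (0.67) and Tnfrsf1b (0.58). Genes higher in tumour libraries but lower at day 14 than at day 4 were Sspo (-2.44), Ikzf2 (-1.32), Dusp14 (-1.11), Ccr8 (-0.89), Zbtb46 (-0.84), Tnfsf4 (-0.75), Sema4c (-0.67), Idi1 (-0.66), Dusp4 (-0.46) and Rps2 (-0.34).

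Genes lower in tumour libraries and lower again at day 14 were Cnr2 (-2.56), Gm14085 (-2.16), Lypd6b (-2.05), Tnfrsf26 (-1.60), Pecam1 (-0.57) and Pdk1 (-0.57). Genes lower in tumour libraries but higher at day 14 than at day 4 were Gimap4 (0.73), Gimap3 (0.69), Gimap8 (0.54), Gimap9 (0.53), Abcg1 (0.48), Cd3e (0.39) and Cd8a (0.34).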

How the results depend on the processing

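Across the alternatives run, 157 named genes gave 3132 values, of which 3108 kept their direction and their side of the threshold, 14 lost a call, 8 gained one and 2 reversed. The reversals were index genes under the melanoma subtraction, Dct (-2.18) and Pmel (-3.34), which that setting removes by construction. The subtraction moved the fold of 44 named genes by over 1.5 times and ended the calls of Gpnmb, Sulf2, Syne2, Ccl3, Car9 and Cd8a; 2 group means ended those of Ctla4, Il2ra, Aldoc and Cd8a, and Cd8a also lost its call without effector replicate 1 or 3, day 4 replicate 1 or day 14 replicate 1. Genes called higher numbered 5517 to 7529 and lower 4983 to 5640 over the settings other than leaving out libraries, and no scaling moved the median of all genes by over 0.041. Higher calls were 53.1% of all calls, and 50.05% to 57.3% over these settings. Leaving out 1 library gave 6283 to 6557 genes higher, 5223 to 5495 lower, 3585 to 3738 higher and 2643 to 2858 lower in all 4 group pairs, 1283 to 2206 called between day 14 and day 4 (lowest without day 14 replicate 2), and 506 to 777 linked genes (lowest without day 14 replicate 1); the index of Dct alone gave 603 and total-count scaling 646. Depth limits genes with few counts on 1 side, where 1 library can hold all of them.

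A replicate block gave 6155 genes higher and 5403 lower and changed no named call. Same-numbered libraries of different groups had correlations of -0.0884 to 0.102, with 1 of 18 above 0.1, so the numbers were not taken as pairs.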
